A study of Mus musculus with 15 samples.

Results

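In mouse macrophages, 334 regions of chromatin carried an ATAC-seq peak in all 3 untreated libraries and in none of the 9 libraries taken 1 h, 2 h or 4 h after lipopolysaccharide (LPS). They are called closed here in the sense that the peak was gone by 1 h and none was called up to 4 h. Merging every pair of peaks that shared at least 1 bp, across the 15 lists, gave 104855 regions, and these 334 are 0.319% of them. The choice used the untreated and the 1 h, 2 h and 4 h libraries, so the loss itself is a description and was not tested. For the same reason nothing is read from the background at single times: 1.2% of all regions had a peak in 3 of 3 untreated libraries and in 0 of 3 at 1 h, 0.817% in 0 of 3 at 2 h and 1.07% in 0 of 3 at 4 h. The rule did not ask for or against a peak at 30 min, and any number of those libraries could carry one. Their peaks did enter the merging, so they could still widen or join regions.

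The cells were primary macrophages grown from the bone marrow of C57BL/6 mice with L929-conditioned medium and used on day 7 of differentiation. All groups share this strain, culture and day. The 5 groups of 3 libraries were untreated cells (UT in the sample names) and cells given 10 ng/ml LPS and collected 30 min, 1 h, 2 h or 4 h later. The sources used here give neither the age nor the sex of the mice. Nothing in the labels says that the 3 libraries of a group are separate animals or dishes. All p-values therefore rest on library-to-library spread, part of which may be technical. The lists hold positions on build mm9 and no gene names, and no annotation of that build was used. Regions are therefore given by position, and the cell type could not be checked against marker genes.

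ATAC-seq marks DNA that is accessible to an added transposase, mainly promoters, enhancers and other sites where proteins have displaced nucleosomes. In resting macrophages such sites are held open by lineage factors such as PU.1 and C/EBP proteins. LPS, a component of the outer membrane of Gram-negative bacteria, binds TLR4 and activates NF-kB, AP-1 and IRF factors. These open many sites, while other sites used by the resting cell lose accessibility.

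The 15 lists held 52447 to 82222 peaks on the nuclear chromosomes, and no read counts came with them. Depth is thus unknown, and a region without a peak may still be accessible below the caller's threshold. Each peak has a score, the peak caller's own value in its own list, which ran from 50 to 3233.06. Untreated replicate 1 had the shortest of the untreated lists (60140 peaks), against 73511 in replicate 2 and 62180 in replicate 3.

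Most of the 334 regions were weak in resting cells. In the list of untreated replicate 1 their median score was 71.3, and 257 of them (76.9%) scored under 100, compared with 17.1% of the 46536 regions that had a peak in 3 of 3 untreated libraries. In replicate 2 the median was 114 and 39.2% scored under 100, against 4.20% of that larger set. In replicate 3 the median was 115 and 43.4% scored under 100, against 11.8%. A median region outscored 13.0%, 25.9% and 27.1% of the peaks in the lists of replicates 1, 2 and 3. Nearly as weak were the 1277 regions with a peak in 3 of 3 untreated and in 1 to 3 of the 9 later libraries. Their median scores were 78.1, 134 and 122 in these lists, above 16.4%, 30.4% and 28.9% of the peaks. In the upper 50% of these lists by score stood 6, 21 and 37 of the 334 regions. Their median width was 1461 bp, against 1531 bp for the 1277 regions with 1 to 3 later peaks and 2025 bp for all regions with a peak in 3 of 3 untreated libraries, and the widest spanned 5393 bp. The rule itself narrows a merged region, since it leaves no later peak to widen it. In 330 of the 334 the strongest peaks of the 3 untreated libraries had bases in common, over a median of 830 bp.

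The limits of the choice were close on both sides. Of the regions with a peak in 3 of 3 untreated libraries, 383 had a peak in a single one of the 9 later libraries, next to the 334 with none. That single peak was in 2 h replicate 2 in 76 of them and in 1 h replicate 3, the shortest list, in 5. A further 1242 regions had no peak in the 9 later libraries and a peak in 2 of 3 untreated ones. At the other end, 35583 regions had a peak in all 9. Without untreated replicate 1 the rule would take 1255 regions, and without untreated replicate 3 it would take 569. Some regions had a later peak just beside them: 39 (11.7%) had one within 500 bp in 1 or more of the 9 later libraries.

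The 30 min libraries, whose peaks entered the merging but not the rule, carried a peak in some of the regions. A share at 30 min is no measure of how far the closing had gone, since the rule requires a peak in every untreated library. Of the 334 regions, 98 (29.3%) had no peak in any 30 min library, 112 had one in 1 library, 87 in 2 and 37 (11.1%) in all 3. Among all 104855 regions, 0.277% were called in 0 of 3 libraries at 30 min and in 3 of 3 untreated ones, which is 0.623% of those with a peak in 3 of 3 untreated libraries. By library, 55.7% of the 334 regions had a peak in 30 min replicate 1, 39.5% in replicate 2 and 23.7% in replicate 3. Replicate 3 had the shortest list at 30 min (54168 peaks). The most common pattern after no peak at all was a peak in replicate 1 alone (64 regions), followed by replicates 1 and 2 together (56). The position of the peaks still called is a description only. The merging counts a 30 min peak here only if it overlaps or links to the untreated ones, so a shifted peak would be missed. Of 393 peaks at 30 min in regions whose untreated peaks had bases in common, 390 overlapped those bases, and the median distance between the centres was 86.5 bp.

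In each 30 min library a smaller share of the 334 regions than of regions that closed and came back had a peak, a difference that 3 libraries cannot take past the threshold. The 334 regions were chosen for having no later peak and the comparison sets for having some. That choice alone could order their shares at 30 min, and its part was not tested. The comparison set of 135 regions had a peak in 3 of 3 untreated libraries, in none at 1 h and in 3 of 3 at 4 h. On average 39.6% ± 16.0 of the 334 regions and 63.5% ± 20.0 of the returning ones had a peak at 30 min (SD, n = 3 libraries each). The difference of -23.8 points ± 4.00 (SD of the 3 differences) had the same sign in all 3 libraries, from -28.0 to -20.1. The same held against 1277 regions with a peak in 3 of 3 untreated libraries and in 1 to 3 of the 9 later ones, a set that can share regions with the returning one. On average 59.6% of these had a peak at 30 min, a difference of -20.0 points ± 4.98 (SD, n = 3). In both comparisons the exact two-sided permutation p, paired within a library, was 0.25, the smallest that 3 libraries allow, and adjusted over the 3 comparisons made it was 0.25. Against the 35583 regions kept in 9 of 9 later libraries the difference was -59.6 points (exact paired p = 0.25). Without untreated replicate 1, when the rule takes 1255 regions, the mean share at 30 min was 23.3% in place of 39.6%.

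**Figure D1:**
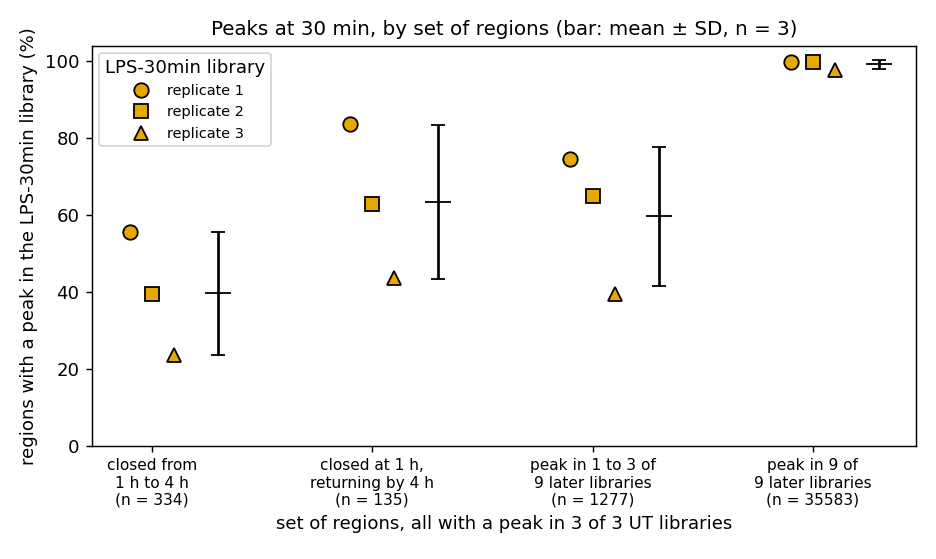
Percent of regions with a peak in each 30 min library (circle, square and triangle for replicates 1, 2 and 3), for the 334 regions closed from 1 h to 4 h and 3 comparison sets that also had a peak in 3 of 3 untreated libraries. The bar is the mean ± SD of the 3 libraries. In each library the 334 regions have the lowest share, between 23.7% and 55.7%, an order that the choice of the sets by their later peaks alone could give.

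The untreated scores were set beside the number of 30 min peaks as a description with no test. The lowest score among the 3 untreated lists had a median of 60.6 in the 98 regions without a peak at 30 min, 63.4 in those with 1, 74.9 in those with 2 and 80.6 in the 37 with all 3. Among the 28 regions whose lowest untreated score was 120 or more, a mean of 72.6% had a peak at 30 min, compared with 29.1% of the 118 regions with a score of 50 to 60. The comparison sets also differed in score. The median of the lowest untreated score was 65.3 in the 334, against 84.3 in the returning regions and 69.8 in those with 1 to 3 later peaks. Within bands of that score, an alternative chosen after seeing the data, the share of the 334 regions remained below that of the regions with 1 to 3 later peaks. Their mean shares were 29.1% against 51.3% at a score of 50 to 60, 37.4% against 57.3% at 60 to 80, 48.5% against 63.7% at 80 to 120, and 72.6% against 80.1% at 120 or more. The difference was -22.2 points at a score of 50 to 60, -19.8 at 60 to 80, -15.2 at 80 to 120 and -7.52 at 120 or more (exact paired p = 0.25 in each, the smallest possible). The returning regions, 26 to 42 per band, averaged 44.9%, 56.4%, 66.7% and 85.7% in the same order of bands. Within each band the sets still differ by their later peaks, which alone could order these shares.

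**Figure D2:**
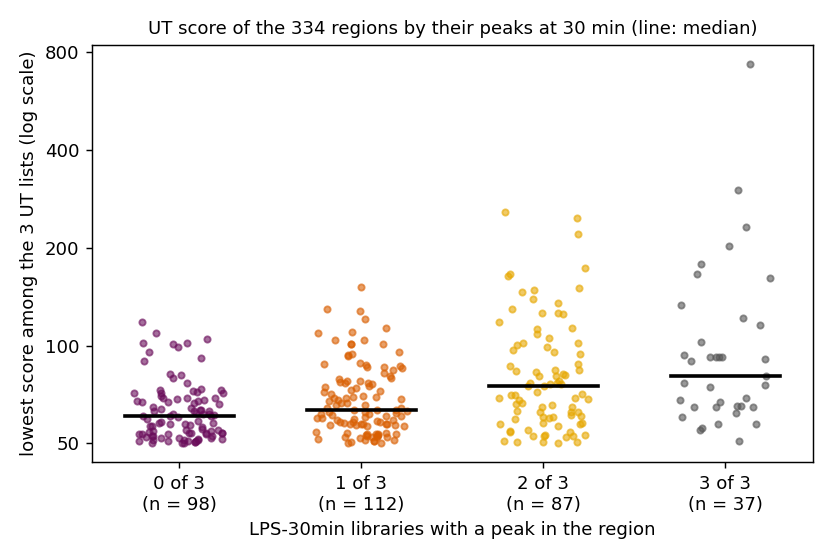
Lowest score among the 3 untreated lists (log axis) of each of the 334 regions, by the number of 30 min libraries with a peak; each point is a region and the line is the median. The medians run from 60.6 with none to 80.6 with 3, and the distributions overlap widely.

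The 37 regions with a peak in 3 of 3 libraries at 30 min had lost it in every library by 1 h. Scores of the 30 min and the untreated lists are given side by side and not compared. First among them by untreated score was the region on chromosome 4 at 19782505 to 19784385. Its peaks scored 578, 353 and 453 in the 30 min lists, against 737, 1268 and 2579 in the untreated lists, where it outscored 76.1%, 78.4% and 92.2% of the peaks. It was the strongest of all 334 regions in each untreated list. The second, on chromosome 13 at 113222837 to 113224496, scored 312, 141 and 248 at 30 min and 301, 347 and 449 untreated. It stood near the middle of the untreated lists, above 53.8% to 61.0% of their peaks.

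The region on chromosome 6 at 116353070 to 116354788 scored 205, 124 and 87.8 in the 30 min lists, against 232, 351 and 300 in the untreated ones. On chromosome X, the region at 165085314 to 165086727 scored 171, 53.5 and 58.8 at 30 min, against 203, 627 and 276 untreated. A second region on chromosome 6, at 135167704 to 135169436, scored 137, 54.2 and 93.5 at 30 min, against 178, 406 and 449 untreated. All 3 regions were thus called in 6 of 6 libraries up to 30 min and in 0 of 9 after it. The other 5 of the first 10 followed in the ranking. They were a second one on X (13183278 to 13184957), a pair on chromosome 1 (89619298 to 89620920 and 89707305 to 89709004), one on chromosome 3 (127033964 to 127035464) and another on chromosome 6 (49009846 to 49015238). This last one was the widest of all 334, with peaks of 1696 to 2325 bp at 30 min and 1790 to 2890 bp in untreated cells.

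A further 98 regions had no peak in any library from 30 min on. The first of them by untreated score lay on chromosome 16 at 7371137 to 7372500 and scored 118, 188 and 301 in the untreated lists. It was followed by chromosome X at 160305105 to 160306491 (109, 243 and 134) and chromosome X at 91373950 to 91375225 (118, 181 and 105). Next came a pair on chromosome 12 (103396264 to 103397766 and 117121797 to 117122508). Chromosome 14 also held a pair (18258956 to 18260908 and 121084492 to 121085969), with 1 region on chromosome 13 (9417574 to 9419384), 1 on chromosome 8 (70980156 to 70981479) and another on X (155517976 to 155519206). All 10 were modest peaks, with a lowest untreated score between 89.4 and 118.

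Between these lay the regions with a peak in 1 or 2 libraries at 30 min, and the first 5 by untreated score had 2. The region on chromosome 11 at 90419298 to 90420982 scored 230 and 112 in 30 min replicates 1 and 3, against 258, 257 and 515 in untreated cells. The one on chromosome 16 at 11840629 to 11842253 scored 412 and 107 in the same 30 min replicates, against 246, 342 and 250 untreated. For the other 3, on X (93508804 to 93510502), chromosome 5 (139951749 to 139953331) and chromosome 9 (119942884 to 119944386), the peaks were in 30 min replicates 1 and 2. The one on chromosome 9 scored 82.3 and 79.3 at 30 min, against 166, 1006 and 306 in untreated cells, where it outscored 41.4%, 74.4% and 52.6% of the peaks.

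**Figure D3:**
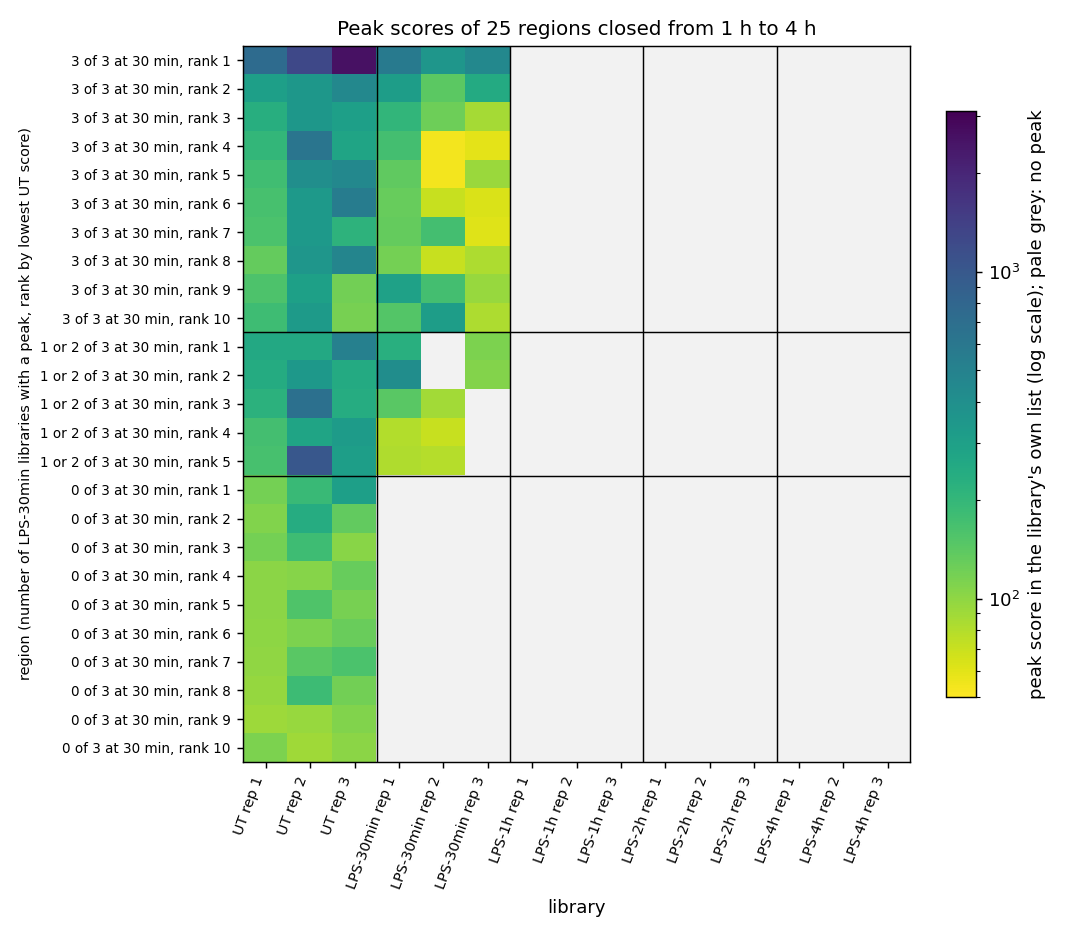
Score of each of 25 regions (rows, grouped by the number of 30 min libraries with a peak and ranked by the lowest untreated score) in each of the 15 libraries (columns), on a log colour scale; pale grey means that no peak was called. The 9 later columns are empty by the rule. The 30 min columns, where the rule allowed any number of peaks, are filled in the top group and empty in the bottom one by the grouping of the rows.

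To see whether the pattern carries over to libraries that did not choose the regions, the choice was repeated with 2 replicate numbers at a time and read in the libraries of the third. With replicates 2 and 3, 1683 regions had a peak in 2 of 2 untreated and 0 of 6 later libraries. In the replicate 1 libraries, the share of them with a peak was 32.3% untreated, 38.0% after 30 min, and 10.6%, 9.63% and 12.4% after 1 h, 2 h and 4 h. With replicates 1 and 3, 750 regions were chosen, and in replicate 2 the shares were 85.5%, 44.7%, 21.3%, 25.6% and 17.7% from untreated to 4 h. With replicates 1 and 2, 627 regions were chosen, and in replicate 3 the shares were 61.2%, 17.2%, 1.44%, 6.22% and 2.39% over the same 5 stages. In each number the 3 later libraries lay below both the untreated and the 30 min library. In replicate 1 the 30 min library lay above the untreated one. The regions with 1 to 3 later peaks, chosen in the same way, also had lower shares in most of the later libraries. In replicate 3 theirs were 69.5%, 33.1%, 7.55%, 23.3% and 15.2% from untreated to 4 h, and in replicate 2 they were 93.6%, 78.7%, 62.6%, 70.5% and 59.3%. In replicate 1 theirs were 53.3%, 71.8%, 41.6%, 55.2% and 52.7%, with the 2 h library above the untreated one. Among all regions with a peak in the 2 untreated libraries used, the shares in the third number were between 77.0% and 98.9% in every library.

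**Figure D4:**
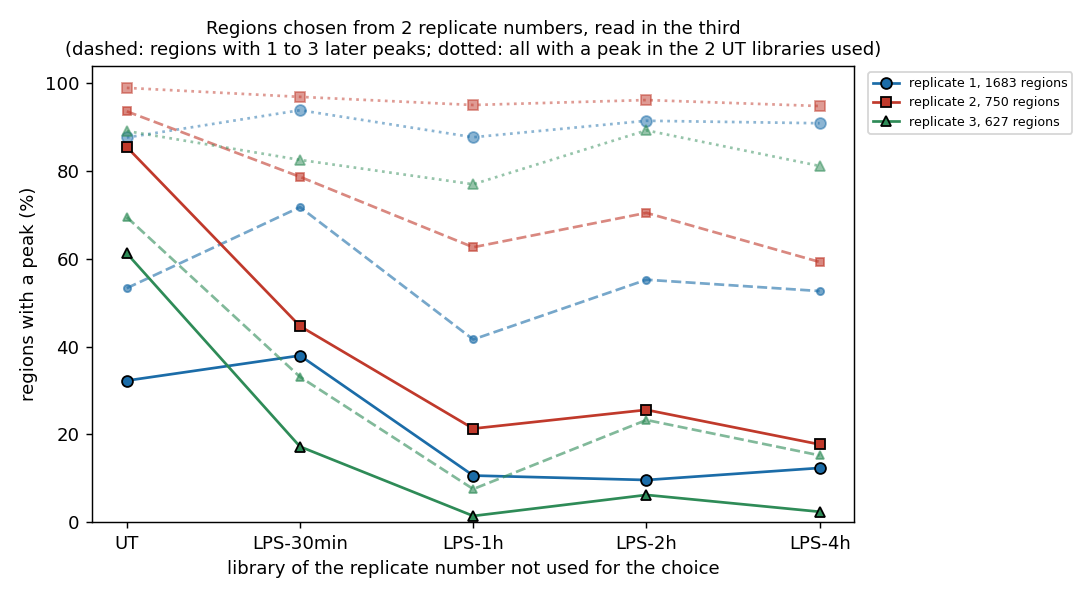
Percent of regions with a peak in the 5 libraries of a replicate number that was not used to choose them (solid lines, 1 per number), against regions with 1 to 3 later peaks chosen in the same way (dashed) and all regions with a peak in the 2 untreated libraries used (dotted). The solid lines end between 2.39% and 17.7% at 4 h, the dashed ones between 15.2% and 59.3% and the dotted ones between 81.2% and 94.8%.

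In the later libraries a smaller share of each list's peaks lay around the 334 regions than in untreated ones, while the number of peaks there did not separate the groups. Within 25 kb of them lay 1632 other regions, which the rule did not choose. The share of a list's peaks found in these neighbours was compared between libraries because the lists differ in length; a share also drops when peaks are gained elsewhere. It was 1.92%, 1.82% and 1.88% in the untreated libraries, then 1.75%, 1.72% and 1.77% after 30 min, and 1.62%, 1.64% and 1.62% after 1 h. At 2 h it was 1.56%, 1.58% and 1.59%, and at 4 h 1.60%, 1.59% and 1.63%. All 9 later libraries lay below all 30 min libraries, which in turn were under all untreated ones. The counts behind these shares overlapped between the groups. In replicate 1 the neighbours held 1154 peaks in the untreated list of 60140 and 1248 at 30 min, then 1157 at 1 h, 1266 at 2 h and 1306 at 4 h, where the list held 81518. In replicate 2 they held 1336, 1322, 1283, 1297 and 1183 peaks from untreated to 4 h, and in replicate 3 they held 1168, 957, 849, 1062 and 911. The percent of the 1632 neighbours with a peak ran from 47.9% to 71.3% over the later libraries, against 63.0% to 76.0% over the untreated ones. Over all regions it ran from 45.3% to 71.6% in later and from 51.3% to 64.8% in untreated libraries. Loss of peaks around the regions and gain of peaks elsewhere cannot be told apart in the share.

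The neighbours' share fell to 1.60% ± 0.0261 in the later libraries (SD, n = 9), against 1.87% ± 0.0511 in the untreated ones (SD, n = 3), a change of -14.3%. The exact two-sided permutation p was 0.00455, the smallest the design allows, and 0.0182 after Benjamini-Hochberg adjustment over 20 tests of this kind. That test pooled the 3 later times. Taken singly, the changes at 1 h, 2 h and 4 h were -13.0%, -15.8% and -14.0%. Each had exact p = 0.1, the smallest for 3 against 3, and adjusted p = 0.143, the same as at 30 min. Within replicate numbers 1, 2 and 3 the difference was -0.322, -0.213 and -0.266 points. The 30 min libraries averaged 1.75%, which is -6.68% relative to untreated (exact p = 0.1, the smallest for 3 against 3, adjusted p = 0.143). Between the later and the 30 min libraries the difference was -0.142 points (exact p = 0.00455, adjusted p = 0.0182). The rule used the later libraries and not the 30 min ones, and the part of that choice in this difference was not tested.

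The same libraries chose the regions and gave these shares, so a local difference between them would move both. When the regions came from 2 replicate numbers and the share from the third, the later libraries averaged 7.44% against 8.36% in untreated replicate 1. They averaged 3.76% against 4.16% in replicate 2, and 2.86% against 3.24% in replicate 3. These are changes of -11.0%, -9.66% and -11.7%, with all 3 later libraries below the untreated one in each number. Without untreated replicate 1 the difference with all numbers was -0.586 points, from 1255 regions, and the exact p was 0.0182.

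The share around the 334 regions was next set against that around the comparison sets. All of these sets were chosen by their later peaks in the same libraries, which alone could order them, so the ratios are given with their values in libraries that did not choose. Near the returning regions the share was 0.702% ± 0.0305 in later libraries and 0.741% ± 0.0335 in untreated ones, a difference that did not pass at 25 kb (exact p = 0.0955, adjusted p = 0.143). At 10 kb the exact p was 0.05 and at 100 kb 0.0455, neither adjusted. Near the regions with 1 to 3 later peaks it fell to 6.07% ± 0.154, against 6.60% ± 0.113 in untreated libraries (-8.09%, exact p = 0.00455, adjusted p = 0.0182). The log2 ratio of the share near the 334 to that near the returning regions averaged 1.19 in later and 1.34 in untreated libraries, a difference of -0.14. The ratio to the share near regions with 1 to 3 later peaks was -1.92 in later and -1.82 in untreated libraries, a difference of -0.10. In both the groups did not overlap (exact p = 0.00455, adjusted p = 0.0182, in the libraries that chose the sets). At 30 min neither ratio passed (exact p = 0.6 and 0.1). With members and sets from 2 replicate numbers and the ratio from the third, an alternative chosen after seeing the data, the ratio to the returning regions differed by -0.07, -0.10 and -0.09 between later and untreated libraries of replicates 1, 2 and 3. The ratio to the regions with a peak in 1 to 3 of the 6 later libraries used differed by -0.07, -0.07 and -0.09. In each of these 6 cases all 3 later libraries lay below the untreated one, and with 1 untreated library there is no test. The part that untreated signal strength has in these ratios was not tested.

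**Figure D5:**
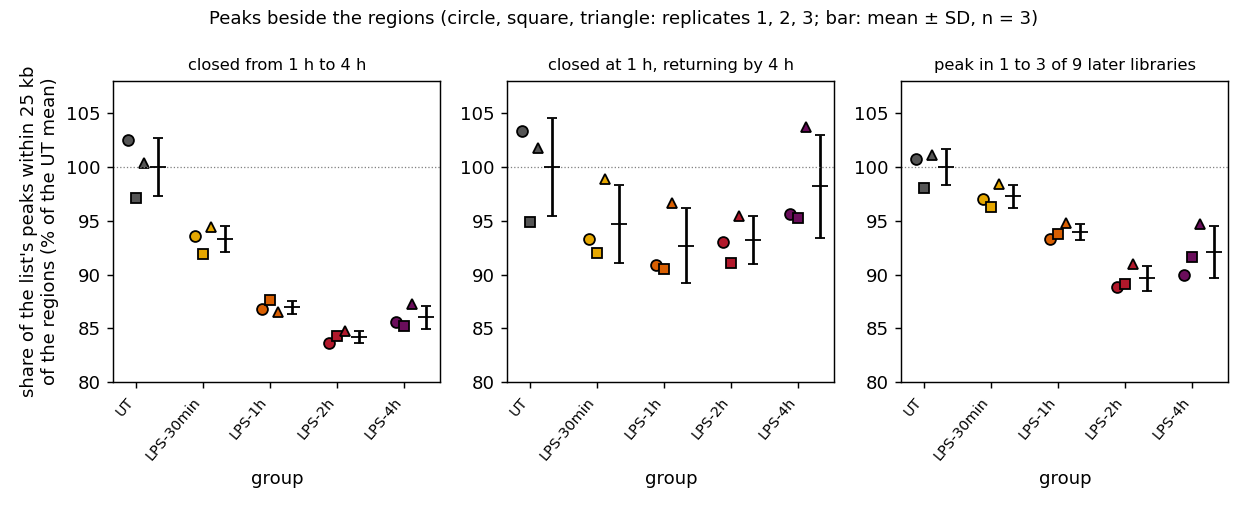
Share of each list's peaks within 25 kb of the regions, as percent of the mean of the 3 untreated libraries, around the 334 regions (left) and 2 comparison sets; symbols are replicates 1, 2 and 3 and the bar is the mean ± SD of a group (n = 3). The vertical axis starts at 80%. On the left no later library overlaps the 30 min or the untreated ones.

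The regions lay on every chromosome but Y. Chromosome 5 held 26 of them (7.78%, against 6.35% of all regions). Chromosome 3 held 24 (7.19% against 5.01%) and chromosome 15 held 8 (2.40% against 4.29%). Chromosome X held 17, which is 5.09% of the 334 regions and 1.82% of the regions there with a peak in 3 of 3 untreated libraries, the highest such share of any chromosome. It held 2.01% of all regions with a peak in 3 of 3 untreated libraries. The nearest region kept in all 9 later libraries was a median of 6.71 kb away, and 195 of the 334 (58.4%) had one within 10 kb. For the returning regions that median was 7.66 kb.

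Most of the regions stood alone. Neighbouring ones on a chromosome were a median of 4.36 Mb apart, and 32 (9.58%) had another within 100 kb. Spacing and stretches are given for no other set of regions, so they are a description only. There were 9 stretches that held 3 or more with gaps of at most 500 kb. The one with the most, chosen after its values were seen, was on chromosome 7 at 56445363 to 56663799 with 4 of them among 33 regions, each called in 2 of the 3 libraries at 30 min. Of the other 29 regions in that stretch, 15, 20 and 9 had a peak in the untreated libraries, 19, 22 and 9 after 30 min, 17, 16 and 7 after 1 h, 15, 13 and 9 after 2 h and 15, 14 and 6 after 4 h. The strongest region, on chromosome 4 at 19782505, was in another stretch, also chosen after its values were seen, of 161 kb with 2 further ones. One of these, at 19764810 to 19766416, scored 56.6 and 145 in 30 min replicates 1 and 3, against 85.3, 62.5 and 1659 untreated. The other, at 19623749 to 19624898, had no peak at 30 min and scored 70.9, 63.7 and 107 untreated.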

How the data were processed

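Per the submitters' processing notes, reads were processed with Bowtie 1.1.2 and MACS 1.4 on mouse build mm9. No source used here states settings, duplicates, read shift, control or blacklist. The authors deposited 1 peak list per library without a header, and its last column is a score, the caller's own value, used only within its list. Depth is unknown, so no counting interval is given. Each list lost its 2 peaks on the mitochondrial genome, and no pair of lists shared more than 13 identical intervals. Printed positions are 1-based.

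Groups and replicate numbers came from the sample titles. Presence, shares and exact two-sided permutation tests over libraries were computed with Python 3.11.15, numpy 2.4.6, pandas 2.3.3 and scipy 1.17.1, at a threshold of 0.05, and tested on simulated data. The members, sets and lists were chosen with earlier results of these data known. Regions are named by the lowest of the 3 untreated scores: the first 10 with a peak in 3 of 3 and in 0 of 3 libraries at 30 min, and the first 5 of the rest. Alternatives were a score of 100, equal list length, 50% coverage, merging over 500 bp, distances of 10 and 100 kb, looser rules, replicate blocks and each library left out. The main test of the neighbours' share did not treat the replicate numbers as pairs. Gene names, markers and motifs, planned for an mm9 annotation, were not analysed here.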

Additional observations from a re-analysis of the deposited data

Results flagged for a closer look

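The change of the neighbours' share from untreated cells differed between the later times and 30 min: the share at 1 h to 4 h minus that at 30 min was -0.142 points (1.60% against 1.75% of a list's peaks within 25 kb of the 334 regions, with no overlap between the 9 and the 3 libraries, exact two-sided permutation p = 0.00455). It was picked out because the test of this difference itself passed.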

How the results depend on the processing

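The number of regions depended on how presence was defined. It was 834 with every list shortened to 52447 peaks, 717 with at most 1 later peak allowed and 1576 with 2 of 3 untreated libraries, against 284 to 360 with a score of 100, 50% coverage or merging over 500 bp. With single libraries left out it ranged from 339 to 1255, and the share at 30 min from 23.3% to 47.6%. The differences in that share from the comparison sets kept their sign in every alternative run, with exact p-values from 0.1 to 0.5 (0.2, 0.3 and 0.1 without the pairing within a library). The difference in the neighbours' share of a list at the later times kept its sign in every alternative run. It passed in each run that allowed a test, from -0.121 to -0.586 points with exact p-values from 0.00455 to 0.0182. A lower share need not be a drop in the neighbours' number of peaks. That number was below the untreated one in every later library of replicates 2 and 3. In replicate 1 it was 1154 in the untreated list, against 1157, 1266 and 1306 at 1 h, 2 h and 4 h. Same-numbered libraries deviated from their group means with correlations of 0.0492 to 0.294 (30 pairs, 36919 regions), not all above 0.1, although 15 of 15 libraries correlated best with a library of their own number, a hint from the data and not from the design. With the replicate block the difference was -0.267 points (exact p = 0.0156) and that at 30 min -0.125 points (exact p = 0.25). With members from 2 replicate numbers and the share from the third it was -0.916, -0.402 and -0.379 points, where 3 libraries against 1 allow no call. With the 334 regions fixed and lists of equal length the change was -14.3%. Unknown depth limits every absence of a peak.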

Other observations

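The number of regions on chromosome X led to a check, chosen after seeing it, of the share of each list's peaks on that chromosome. It was 1.95% ± 0.0850 in the 9 later libraries and 2.05% ± 0.110 in the 3 untreated ones (SD), with overlapping groups (exact two-sided permutation p = 0.164, adjusted over 4 tests p = 0.3). Without the 17 regions themselves it was 1.95% in later and 2.02% in untreated libraries (exact p = 0.282, adjusted p = 0.3). At 30 min the share was 1.94% ± 0.0534 (SD, n = 3, exact p = 0.3).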
